A study of Polyandrocarpa zorritensis and Clavelina lepadiformis with 36 samples.

Results

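The enzymes and transporters that carry sugar into cells, break it down and rebuild it were followed through dormancy and germination in 2 colonial tunicates, *Polyandrocarpa zorritensis* and *Clavelina lepadiformis*. The members were the ortholog pairs whose transcript in either species had its best human match to 1 of 8 entries, which were the sugar transporters GTR1_HUMAN (here SLC2A1) and GTR5_HUMAN (SLC2A5), the hexokinase HXK2_HUMAN (HK2), G3P_HUMAN (GAPDH), PGK1_HUMAN (PGK1), LDHB_HUMAN (LDHB), pyruvate carboxylase PYC_HUMAN (PC) and the mitochondrial phosphoenolpyruvate carboxykinase PCKGM_HUMAN (PCK2). This gave 11 pairs of the 4424 in the deposited pair table. With the other transcripts of the same Trinity genes (the assembler's grouping of related transcripts), they were 14 of 27938 transcripts in *P. zorritensis* and 16 of 18610 in *C. lepadiformis*. Because 5 pairs are glucose or fructose transporters, they are named SLC2A1, SLC2A5-a, SLC2A5-b, SLC2A5-c and SLC2A5/SLC2A1, the last being matched to SLC2A5 in *P. zorritensis* and to SLC2A1 in *C. lepadiformis*. A name gives the best human match only, and which sugar each protein carries is not known from these data.

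Cells take up hexoses through SLC2A transporters, hexokinase traps them as sugar phosphates, and glycolysis converts these to pyruvate with a small yield of ATP that needs no oxygen. Lactate dehydrogenase interconverts pyruvate and lactate. Gluconeogenesis runs the other way, and its opening steps are the carboxylation of pyruvate to oxaloacetate by pyruvate carboxylase and the conversion of oxaloacetate to phosphoenolpyruvate by PCK enzymes, while GAPDH and PGK1 catalyse reversible steps shared by both directions.

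RNA of 36 samples was sequenced, 18 of each species. Zooid (the feeding adult), pre-bud, stolon and dormant tissue had 3 samples each, and germinating tissue had 6, of which 3 were kept at 18 °C and 3 at 24 °C for 48 h. The pre-bud stage was the budding nest of *P. zorritensis* and the budding chamber of *C. lepadiformis*, and the dormant stage was the spherule of the former and the winter bud of the latter. Every sample pooled tissue of at least 3 specimens. The spherules of *P. zorritensis* were frozen after collection in the field in spring, whereas its zooids, stolons and buds grew in the laboratory from material of the same rope, so dormancy and collection in the field cannot be told apart in this species. In *C. lepadiformis* all stages came from the same laboratory colony.

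The values analysed are the authors' means over the samples of a stage, in TPM (transcript abundance per length and library total) scaled within each species by TMM, with the germinating samples of both temperatures averaged together. Each stage of a species thus has 1 value, so no difference below has a replicate check, a standard deviation or a p-value, and the depth behind each mean is unknown. Levels are given on this scale within a species and are not compared between species. The 4 comparisons of a species share its dormant mean. A transcript was counted as higher or lower when log2(mean + 1) differed by at least 2-fold and the higher stage had a mean of at least 5. These are bulk tissues, in which fewer cells of a type and less RNA per cell cannot be told apart.

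In *P. zorritensis* the sum of all values of dormant tissue was 2.28 times that of zooids. Its 10 most abundant transcripts held 24.0% of the sum, against 9.85% to 14.8% in the other stages. In *C. lepadiformis* the sum of germinating tissue was 1.65 times that of zooids. Its 10 most abundant transcripts held 24.7%, against 14.3% to 21.4% in the other stages. Summed cilia markers of *P. zorritensis* were at 260 in zooids and between 2.41 and 9.44 in the other stages. Those of *C. lepadiformis* were at 293 in zooids and between 3.39 and 4.58 in the other stages. The 2 troponin pairs measured as muscle markers summed to 955 in zooids of *P. zorritensis*, to 0.229 in pre-buds, 0.145 in stolons, 127.5 in dormant and 93.0 in germinating tissue. In *C. lepadiformis* they summed to 356 in zooids and to between 5.33 and 8.28 elsewhere. The muscle marker sum of *P. zorritensis* was therefore higher in dormant and germinating tissue than in pre-buds and stolons, but highest in zooids. It rested almost wholly on the TNNI1 match, at 126.1 in dormant and 92.2 in germinating tissue. TNNT2 was at 1.39 and 0.791 there. The part of the muscle markers in the results was not tested.

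Dormant tissue of *P. zorritensis* held the highest mean of 8 of the 11 member pairs, whereas 16.9% of all listed transcripts of this species were highest in that stage. These 8 were SLC2A1, SLC2A5-a, HK2, GAPDH, PGK1, LDHB, PC and PCK2. On the deposited scale SLC2A1, SLC2A5-a, the trapping enzyme, both shared steps, the lactate step and both opening steps of gluconeogenesis thus peaked together. The other transporter pairs did not, with SLC2A5/SLC2A1 and SLC2A5-b highest in stolons and SLC2A5-c in zooids. HK2 was only 1.23-fold above pre-buds, and with every stage rescaled to the same sum HK2 and SLC2A1 were highest in pre-buds. In *C. lepadiformis* 3 of 11 were highest in winter buds, namely SLC2A5-a, PC and PCK2, against 7.64% of its listed transcripts, while 5 were highest in stolons (16.4% of listed transcripts) and 3 in zooids (45.5%). The pair table lists only pairs that the authors called in both species, so all members and all listed transcripts come from genes that differed between stages.

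**Figure D1:**
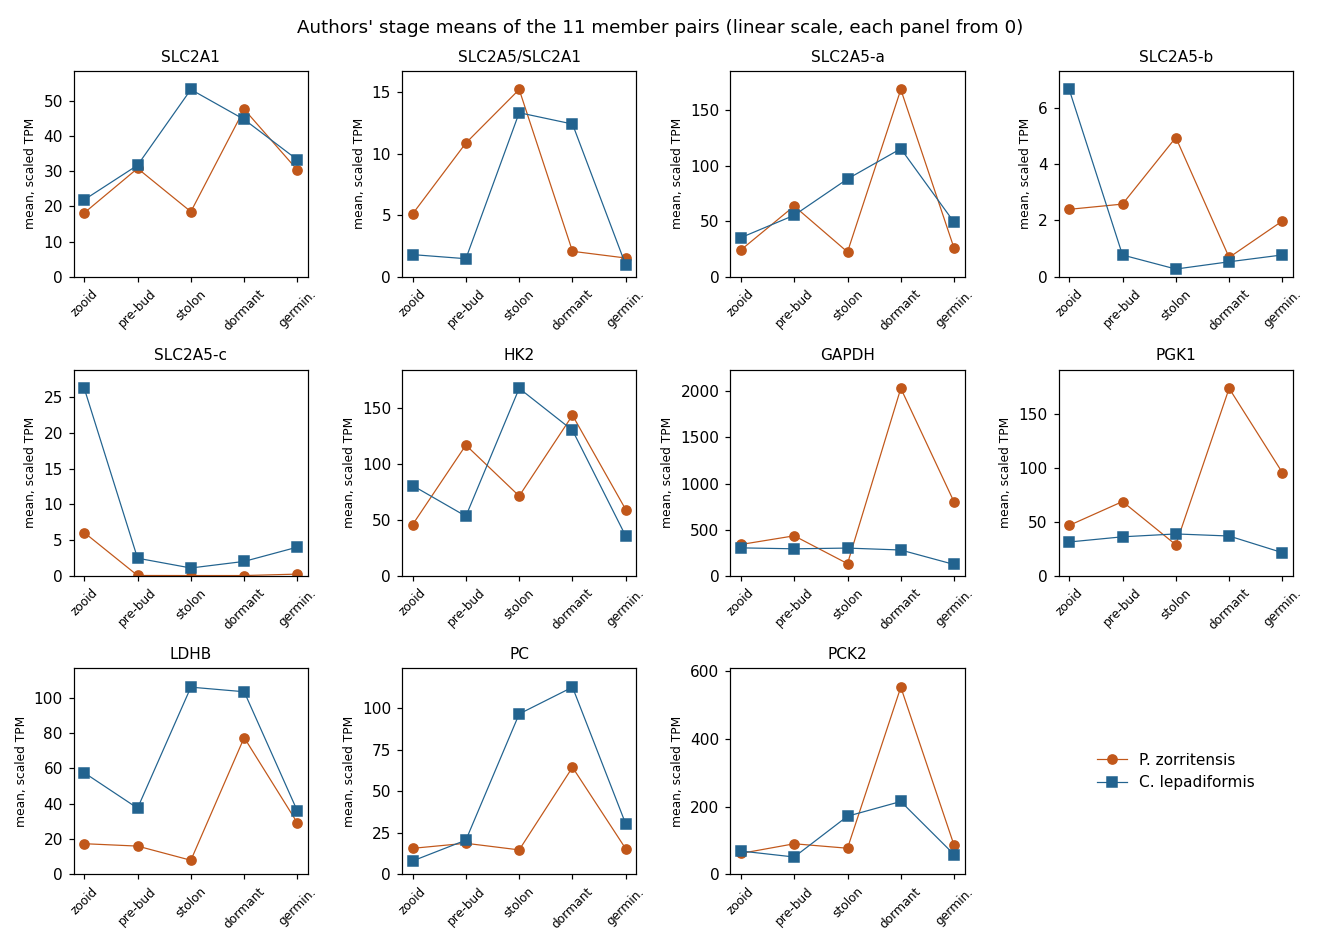
Stage means of the 11 member pairs on a linear axis from 0, in scaled TPM, with 1 point per species and stage (circles, *P. zorritensis*, and squares, *C. lepadiformis*). Lines join the stages of a species and the axis differs between panels. PCK2 of *P. zorritensis* stands at 552 in dormant tissue and between 61.8 and 90.2 in the other stages, while PC and PCK2 of *C. lepadiformis* are high in both stolons and winter buds.

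Of the sugar transporters, SLC2A5-a had the highest level in dormant tissue of both species. In *P. zorritensis* its means were 24.1 in zooids, 63.7 in pre-buds, 22.3 in stolons, 168.7 in dormant and 25.6 in germinating tissue. In *C. lepadiformis* they were 35.2, 55.4, 88.1, 115.4 and 49.0 in the same order. Spherules thus stood apart from all other stages, and germinating tissue was near the level of zooids, while in *C. lepadiformis* the levels formed a ladder from zooids over pre-buds and stolons to winter buds. Dormant tissue exceeded the next highest stage 2.65-fold in *P. zorritensis* and 1.31-fold in *C. lepadiformis*.

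SLC2A1, matched to the transporter that supplies glucose to many human cell types, varied less. Its means in *P. zorritensis* were 18.2 in zooids, 30.8 in pre-buds, 18.5 in stolons, 47.7 in dormant and 30.3 in germinating tissue. Those in *C. lepadiformis* were 21.9, 31.7, 53.3, 44.8 and 33.2. On the deposited scale zooids were lowest in both species, though almost level with stolons in *P. zorritensis*. The top stage was dormant tissue in *P. zorritensis* and stolons in *C. lepadiformis*, each less than 2-fold above the next stage. With every stage rescaled to the same sum, the lowest stage was the stolon in *P. zorritensis* and germinating tissue in *C. lepadiformis*. Pre-buds were then highest in *P. zorritensis*, and stolons still were in *C. lepadiformis*.

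The pair SLC2A5/SLC2A1 went opposite ways in dormant tissue of the 2 species. In *P. zorritensis* its means were 5.10 in zooids, 10.9 in pre-buds, 15.2 in stolons, 2.07 in dormant and 1.52 in germinating tissue. The means of *C. lepadiformis* were 1.80, 1.46, 13.3, 12.4 and 0.937. Stolons were highest in both, but dormant tissue was 7.37-fold below stolons in *P. zorritensis* and close to stolons in *C. lepadiformis*, where the transcript was 13.2-fold lower again after germination.

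SLC2A5-c was almost restricted to zooids. Its means in *P. zorritensis* were 6.03 in zooids, 0.007 in pre-buds and 0.200 in germinating tissue, and it was listed at 0 in stolons and dormant tissue. In *C. lepadiformis* they were 26.3, 2.43, 1.06, 1.98 and 3.99 from zooid to germinating tissue. The 2 species resembled each other most for this pair among the 11. Its difference between zooids and the other stages went with the cilia marker sums given above. Many digestive markers were also lower in dormant tissue than in zooids, 10 of 14 pairs in *P. zorritensis* and 8 of 15 in *C. lepadiformis* (background 32.7% and 27.3%). In the same order 1 and 2 were higher (background 12.7% and 10.4%). The part of either tissue in the SLC2A5-c levels was not tested.

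SLC2A5-b was low throughout, at 2.40, 2.58, 4.95, 0.685 and 1.98 in *P. zorritensis*, where it stayed under the minimum of 5 in every stage and entered no count of higher or lower pairs on the deposited scale. *C. lepadiformis* zooids had a mean of 6.66, and it was between 0.272 and 0.775 in its other stages. Its lowest stage was dormant tissue in *P. zorritensis* and the stolon in *C. lepadiformis*.

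HK2 encodes hexokinase, which commits glucose to the cell by phosphorylation. Its means in *P. zorritensis* were 45.5 in zooids, 116.8 in pre-buds, 71.2 in stolons, 143.5 in dormant and 59.0 in germinating tissue. Its *C. lepadiformis* means were 80.6, 53.1, 167.7, 130.1 and 35.2. Pre-buds and spherules were the high stages in *P. zorritensis* and lay within 1.23-fold of each other, while in *C. lepadiformis* stolons and winter buds were high and pre-buds were not.

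GAPDH, the enzyme of the NADH-producing step of glycolysis, was the most abundant member in every stage of both species. Its means in *P. zorritensis* were 337 in zooids, 432 in pre-buds, 129.3 in stolons, 2034 in dormant and 798 in germinating tissue. For *C. lepadiformis* they were 300.7, 290.5, 298.3, 277 and 120.2. Dormant tissue of *P. zorritensis* was 15.7-fold above stolons and 2.55-fold above germinating tissue, its next highest stage. In *C. lepadiformis* 4 stages lay close together and only germinating tissue was lower, at 2.31-fold below winter buds, and the profiles of the species differed more for GAPDH than for any other member.

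PGK1, phosphoglycerate kinase, which makes ATP in the step after GAPDH, had the same order of stages as GAPDH in *P. zorritensis*. Its means there were 46.5 in zooids, 68.6 in pre-buds, 28.5 in stolons, 173.5 in dormant and 95.3 in germinating tissue. In *C. lepadiformis* they were 31.1, 35.9, 38.5, 36.6 and 21.2. The spread among the stages was small in *C. lepadiformis*, again with germinating tissue lowest.

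LDHB, the lactate dehydrogenase subunit that in human tissues prevails in the heart, followed the same order at the top in *P. zorritensis*. Its means were 17.3 in zooids, 16.0 in pre-buds, 7.98 in stolons, 77.3 in dormant and 29.0 in germinating tissue. The *C. lepadiformis* ortholog was at 57.5, 37.4, 105.9, 103.3 and 35.7. Winter buds and stolons of *C. lepadiformis* were nearly equal and stood above the other stages, whereas in *P. zorritensis* spherules were 9.70-fold above stolons, the lowest stage.

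Pyruvate carboxylase, PC, opens gluconeogenesis in mitochondria and also refills the citric acid cycle. In *P. zorritensis* its means were 15.7 in zooids, 18.7 in pre-buds, 14.7 in stolons, 64.4 in dormant and 15.3 in germinating tissue. In *C. lepadiformis* they were 8.06, 20.6, 96.5, 112.6 and 30.2. The 4 stages outside dormancy were almost level in *P. zorritensis*, and dormant tissue was 3.44-fold above the highest of them. In *C. lepadiformis* the lowest stage was the zooid, 14.0-fold below winter buds, and stolons were within 1.17-fold of them.

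PCK2, which supplies phosphoenolpyruvate from oxaloacetate, had the largest lead of dormant tissue over the next highest stage among the members of *P. zorritensis*. Its means were 61.8 in zooids, 90.2 in pre-buds, 77.1 in stolons, 552 in dormant and 85.4 in germinating tissue. The means of *C. lepadiformis* were 68.9, 51.2, 171.5, 215.0 and 58.4. Dormant tissue was 6.12-fold above the next highest stage in *P. zorritensis* and 1.25-fold above stolons in *C. lepadiformis*. Germinating tissue was 6.47-fold and 3.68-fold below dormant tissue in the respective species, nearer to zooids than to dormant tissue in both.

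Dormant tissue was set against each other stage to ask which steps stood higher in dormancy. In *P. zorritensis* 8 of the 10 member pairs that reached the minimum were higher in dormant tissue than in zooids, where 12.7% of listed transcripts were, and 1 was lower, SLC2A5-c, against 32.7% of listed transcripts. Against pre-buds 6 of 9 were higher (background 8.46%) and 1 was lower (background 15.7%). SLC2A1 and HK2, which were high in pre-buds too, did not reach 2-fold. Against stolons 8 of 9 were higher (background 16.3%) and SLC2A5/SLC2A1 was lower (background 18.6%). Against germinating tissue 6 of 8 were higher (background 5.96%), namely SLC2A5-a, HK2, GAPDH, LDHB, PC and PCK2, and none was lower (background 15%). The share of members that were higher was above the background in all 4 comparisons. The members were chosen with earlier results of these data known. Their excess in counts and scores, in either species, is therefore not an independent result.

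These counts in *P. zorritensis* depend on how stages are put on a common scale. With every stage rescaled to the same sum, which lowers the median dormancy score of listed transcripts (defined below) from -0.32 to -0.92, 3 members were higher and 2 lower than in zooids (background 2.68% and 68.4%). Against pre-buds 3 were higher and 1 lower (background 2.63% and 45.3%), against stolons 6 were higher and 2 lower (background 3.69% and 49%), and against germinating tissue 3 were higher and none lower (background 1.96% and 37.3%). PCK2 was higher in all 4 comparisons under this scaling, GAPDH and SLC2A5-a in 3 of 4 each. Of the 8 pairs highest in dormant tissue 6 were so under it, and SLC2A1 and HK2 were not.

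In *C. lepadiformis* 4 of 11 member pairs were higher in winter buds than in zooids, namely SLC2A5/SLC2A1, SLC2A5-a, PC and PCK2, where the background was 10.4%. SLC2A5-b and SLC2A5-c were lower (background 27.3%), and SLC2A1, at 2.04-fold on the means themselves, fell just short of 2-fold after 1 was added. Against pre-buds 6 of 9 were higher (background 4.61%) and none lower (background 6.04%). Against stolons none of 9 was higher (background 1.42%) or lower (background 4.52%), the comparison in which listed transcripts differed least too. Against germinating tissue 7 of 9 were higher (background 6.32%) and none lower (background 5.56%), and with every stage rescaled to the same sum all 9 were higher, where the background was then 30%.

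**Figure D2:**
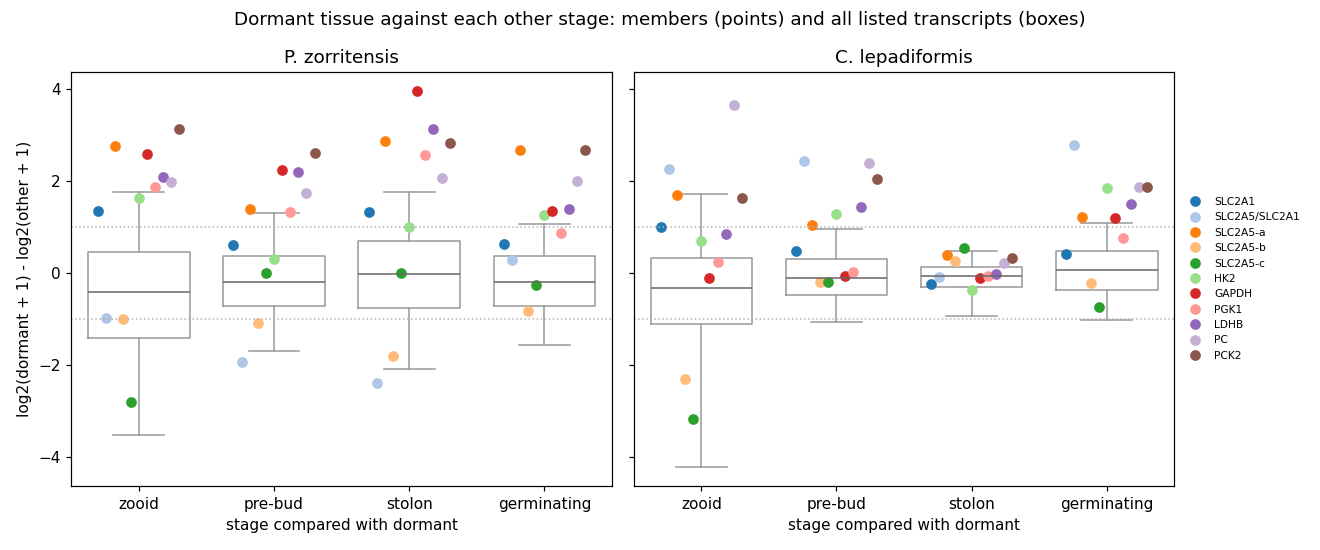
Difference of log2(mean + 1) between dormant tissue and each other stage for the 11 member pairs (coloured points) in both species. Grey boxes give the median, quartiles and 5th to 95th percentiles of the listed transcripts that reached a mean of 5, and dotted lines mark 2-fold. In *P. zorritensis* most members lie above the boxes in all 4 comparisons, while in *C. lepadiformis* all 11 lie within 2-fold of stolons.

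A dormancy score, the log2(mean + 1) of dormant tissue less its average in the remaining 4 stages, put the members on a single scale. In *P. zorritensis* the median score of the members was 1.66, with 8 of 11 above 0, against a median of -0.32 and 33.6% above 0 over the listed transcripts and a median of -0.24 over all transcripts. In *C. lepadiformis* the median was 0.86, with 9 of 11 above 0, against -0.16 and 35.5% over the listed transcripts and a median of -0.08 over all. PCK2 had the highest score of the members in *P. zorritensis* at 2.81, followed by GAPDH at 2.53, SLC2A5-a at 2.42, LDHB at 2.20, PC at 1.94, PGK1 at 1.66, HK2 at 1.05 and SLC2A1 at 0.98. In *C. lepadiformis* PC led at 2.03, followed by SLC2A5/SLC2A1 at 1.85, PCK2 at 1.47, SLC2A5-a at 1.08, LDHB at 0.94, HK2 at 0.86, SLC2A1 at 0.41, PGK1 at 0.24 and GAPDH at 0.23. With every stage rescaled to the same sum, the median score of the members in *P. zorritensis* was 0.79, against -0.92 over the listed transcripts, and SLC2A1 and HK2 were at 0.13 and 0.18. On the deposited scale GAPDH and PGK1, the shared steps, were thus near the top of the order or in its middle in *P. zorritensis* and last among the positive scores in *C. lepadiformis*. The pairs with negative scores in *P. zorritensis* were SLC2A5/SLC2A1 at -1.27, SLC2A5-b at -1.19 and SLC2A5-c at -0.77, and those in *C. lepadiformis* were SLC2A5-c at -0.90 and SLC2A5-b at -0.62.

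The stage with the largest median difference between the species was the stolon. Each profile was centred on its own average over the 5 stages on the log2(mean + 1) scale, and in stolons 9 of 11 members were lower in *P. zorritensis* than in *C. lepadiformis*, with a median difference of -1.41, against 60.1% and a median of -0.12 over the listed pairs. The differences in stolons were -2.23 for GAPDH, -2.15 for LDHB, -1.91 for PC, -1.50 for PGK1 and -1.42 for PCK2, and those above 0 were 1.63 for SLC2A5-b and 0.64 for SLC2A5-c. In dormant tissue 3 of 11 were lower in *P. zorritensis*, with a median difference of 0.45, against 53.0% and a median of -0.05 over the listed pairs. With every stage rescaled to the same sum the difference in stolons was -1.38 and that in dormant tissue changed sign, to -0.06 with 6 of 11 lower in *P. zorritensis*, against a median of -0.65 over the listed pairs. Stolons were the lowest stage of 5 members in *P. zorritensis* (28.3% of listed transcripts), with SLC2A5-c at 0 in both stolons and dormant tissue, and of 2 in *C. lepadiformis* (17.7%), where germinating tissue was lowest for 5 members (31.3%). Over all 5 stages the median root mean square difference between the species was 0.99 for the members and 0.53 for the listed pairs.

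Levels of 2 transcripts within a stage are given per length and share any scaling factor common to that stage, so their ratio does not depend on it. Factors of the single libraries averaged into a stage mean do not cancel in this way. PCK2 over PGK1 in *P. zorritensis* was 1.33 in zooids, 1.32 in pre-buds, 2.70 in stolons, 3.18 in dormant and 0.896 in germinating tissue. The same ratio in *C. lepadiformis* was 2.22, 1.43, 4.45, 5.87 and 2.76. Dormant tissue had the highest value in both species, with stolons next and less than 2-fold below it in both.

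LDHB over PGK1 was also highest in dormant tissue of both species, though by little. It was 0.373 in zooids, 0.233 in pre-buds, 0.280 in stolons, 0.446 in dormant and 0.304 in germinating tissue of *P. zorritensis*. In *C. lepadiformis* it was 1.85, 1.04, 2.75, 2.82 and 1.68. Winter buds and stolons were again nearly equal. Summed over all transcripts of its Trinity gene, LDHB over PGK1 in *C. lepadiformis* was 4.57 in winter buds and 4.21 in stolons.

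The other ratios were not highest in dormant tissue of *P. zorritensis*. PC over PGK1 was 0.337, 0.273, 0.516, 0.371 and 0.161 from zooid to germinating tissue in *P. zorritensis*, highest in stolons. In *C. lepadiformis* it was 0.259, 0.574, 2.50, 3.07 and 1.43, highest in winter buds. HK2 over PGK1 was highest in stolons of both species, at 2.50 (*P. zorritensis*) and 4.35 (*C. lepadiformis*), and in dormant tissue it was 0.827 and 3.55. Summed over both transcripts of its Trinity gene, PC over PGK1 in *P. zorritensis* was 1.37 in stolons and 1.26 in dormant tissue, and between 0.606 and 0.915 in the other stages, with stolons still highest.

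**Figure D3:**
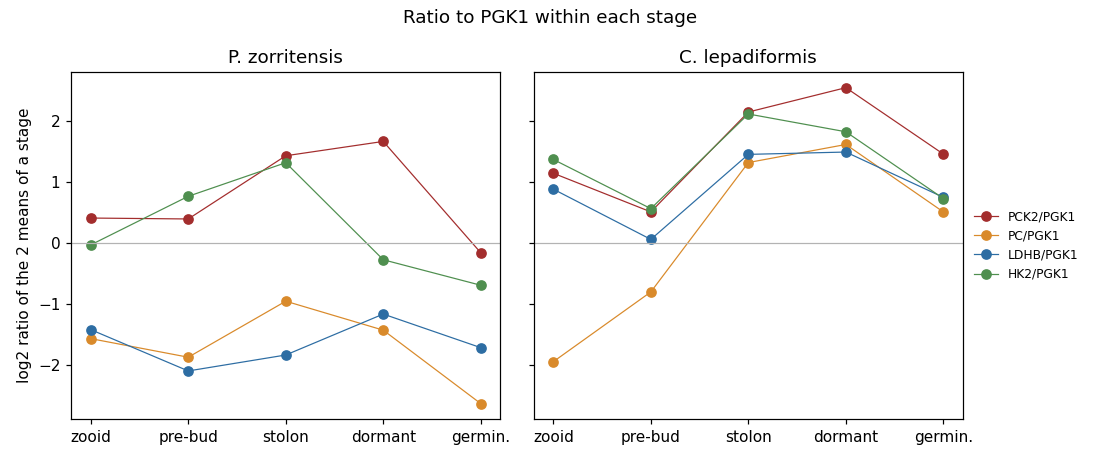
Log2 ratio of PCK2, PC, LDHB and HK2 to PGK1 within each stage, with 1 point per stage mean. The line at 0 marks equal levels. PCK2 over PGK1 is highest in dormant tissue, at 3.18 in *P. zorritensis* and 5.87 in *C. lepadiformis* on the linear scale. Stolons are less than 2-fold below it in both species. HK2 over PGK1 peaks in stolons.

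Several Trinity genes had more than 1 transcript, and Kallisto, the program that assigned reads, splits those that fit several of them by estimation. In *P. zorritensis* the PC transcript of the pair was the lesser of the 2. The other one had means of 26.8 in zooids, 31.4 in pre-buds, 24.3 in stolons, 154.4 in dormant and 42.5 in germinating tissue, which was 62.3% to 73.5% of the sum in each stage. Summed over both, PC reached 218.8 in dormant tissue and 39.0 to 57.8 elsewhere, so the dormant excess was in both transcripts.

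In *C. lepadiformis* the 2 transcripts of SLC2A5-a went opposite ways from zooids to winter buds. The transcript outside the pair had means of 41.7 in zooids, 42.2 in pre-buds, 34.1 in stolons, 20.1 in dormant and 18.5 in germinating tissue. The share of the paired transcript was 45.8% in zooids, 56.7% in pre-buds, 72.1% in stolons, 85.2% in dormant and 72.6% in germinating tissue. The sum still was highest in winter buds, at 135.5 against 122.2 in stolons, and its dormancy score was 0.60 where that of the paired transcript alone was 1.08. Summed in this way SLC2A5-a no longer reached 2-fold against zooids, pre-buds or germinating tissue, so 3, 5 and 6 members were higher in winter buds in these comparisons in place of 4, 6 and 7.

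PCK2 of *C. lepadiformis* had a minor transcript at 7.13 in zooids, 12.4 in pre-buds, 2.95 in stolons, 0.056 in dormant and 0.041 in germinating tissue. It made up 19.4% of the PCK2 sum in pre-buds and 0.026% in winter buds. For LDHB of *C. lepadiformis*, 1 of 2 further transcripts was highest in winter buds, at 43.9 against 31.4 in stolons, and with all 3 summed LDHB was highest in winter buds, at 167.2 against 162.3 in stolons. The minor transcripts of SLC2A5-a in *P. zorritensis* reached at most 5.99 and that of SLC2A1 in *C. lepadiformis* at most 5.85.

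**Figure D4:**
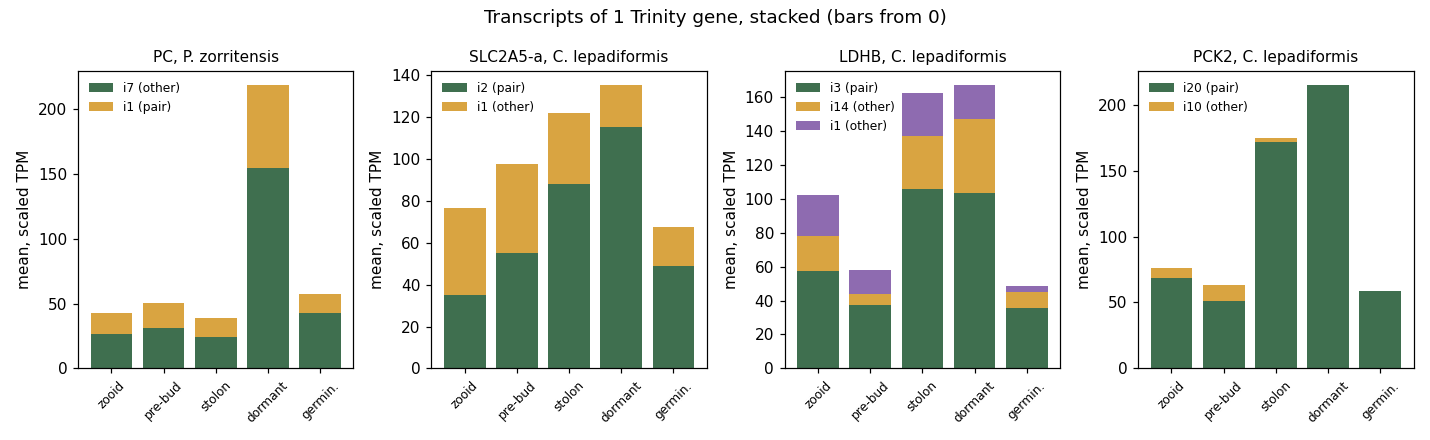
Stacked stage means, in scaled TPM from 0, of the transcripts of 4 Trinity genes (PC of *P. zorritensis*, and SLC2A5-a, LDHB and PCK2 of *C. lepadiformis*). Green is the transcript with the highest dormant mean, and the legend says which belongs to the ortholog pair. The share of the paired SLC2A5-a transcript goes from 45.8% in zooids to 85.2% in winter buds.

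The rest of sugar metabolism was described from lists of 116 entries for sugar transport, glycolysis, lactate and pyruvate, gluconeogenesis, glycogen and the pentose phosphate pathway, among which 33 pairs were not members. No pair carried the name of glucose-6-phosphate isomerase, triosephosphate isomerase, phosphoglycerate mutase, enolase, pyruvate kinase or fructose-1,6-bisphosphatase, and these steps were not analysed here. In *P. zorritensis* 3 of 30 such pairs were higher in dormant tissue than in zooids and 7 lower (background 12.7% and 32.7%). The counts were 3 and 9 of 27 against pre-buds (8.46% and 15.7%), 5 and 6 of 25 against stolons (16.3% and 18.6%), and 2 and 7 of 28 against germinating tissue (5.96% and 15%). In *C. lepadiformis* 3 were higher and 3 lower of 28 against zooids (10.4% and 27.3%), and none was higher and 1 lower of 27 against pre-buds (4.61% and 6.04%). None of 26 differed either way against stolons (1.42% and 4.52%), and 2 were higher and 4 lower of 28 against germinating tissue (6.32% and 5.56%). The median dormancy score of these pairs was -0.49 (*P. zorritensis*) and -0.12 (*C. lepadiformis*), on the other side of 0 from the members and near the listed transcripts. Members and lists were chosen with earlier results of these data known, so this contrast is not an independent result either.

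Within glycolysis the aldolase ALDOC, which splits fructose-1,6-bisphosphate, was at 176.0 in zooids, 174.7 in pre-buds, 84.5 in stolons, 448 in dormant and 249 in germinating tissue of *P. zorritensis*. In *C. lepadiformis* it was at 21.6, 24.3, 41.9, 29.6 and 24.0. Phosphofructokinase (PFKAM), the rate-limiting enzyme, chosen here after its values were seen, was at 9.24 in spherules and between 2.50 and 5.69 in the other stages. In *C. lepadiformis* it was highest in zooids, at 11.1. On the deposited scale both enzymes had their top value in dormant tissue of *P. zorritensis* only. With every stage rescaled to the same sum ALDOC was still highest there, whereas PFKAM was highest in zooids, with dormant tissue at 0.710 of their level.

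TIGAR, a phosphatase that in human cells lowers glycolytic flux, went the other way in *P. zorritensis*, at 8.06 in dormant tissue and 16.2 to 69.8 in the other stages. The ADP-dependent glucokinase ADPGK, named in *C. lepadiformis* only, was at 6.42 in spherules and 15.8 to 36.4 elsewhere. In *C. lepadiformis* their scores were -0.16 and -0.17.

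The monocarboxylate transporter family, several members of which carry lactate and pyruvate, held the pairs with the lowest scores in *P. zorritensis*, at -2.57 for MOT5 and -3.34 for MOT4. MOT5 was at 5.02 in spherules and between 18.0 and 67.0 in the other stages of *P. zorritensis*, and the pair named MOT4 in *C. lepadiformis* was at 1.23 against 10.9 to 47.8. Their scores in *C. lepadiformis* were -0.68 for MOT5 and -0.02 for MOT4. The pair named MOT2 in both species, chosen after its values were seen, had a score of 0.71 in *P. zorritensis*, with 10.4 in spherules and 2.81 to 9.34 elsewhere. Of gluconeogenesis, the cytosolic aspartate aminotransferase AATC was lowest in spherules, at 10.5 against 14.1 to 43.7, and its score in *C. lepadiformis* was -0.39.

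Of the glycogen enzymes in *P. zorritensis*, glycogen synthase GYS1 was at 15.4 in dormant tissue and between 3.17 and 6.25 elsewhere. The glycogen-degrading phosphorylase PYGB of the same species was at 26.8 in dormant tissue against 45.8 to 63.7, and KPB2, a subunit of the kinase that activates phosphorylase, at 3.71 against 8.41 to 25.5. Synthase was thus highest, and phosphorylase and its kinase lowest, in spherules, also with every stage rescaled to the same sum. Being lowest there was common, at 32.0% of listed transcripts on the deposited scale. The glycogen pairs PHKG2 and GDE, named here after their values were seen, were also lowest in spherules. With every stage rescaled to the same sum, so were GLYG and the branching enzyme GLGB, named in the same way. On the deposited scale synthase was the 1 of 8 glycogen pairs highest in spherules (16.9% of listed transcripts). The median score of the 8 pairs in this species was -0.47. In *C. lepadiformis* PYGB was at 24.7 in zooids, 71.9 in pre-buds, 59.2 in stolons, 64.0 in winter buds and 48.7 in germinating tissue. GYS1 was there at 19.7, 29.5, 17.6, 24.0 and 18.4, so pre-buds were highest for both, and the difference between the species was not tested. The pentose phosphate enzymes TKT and TALDO had scores of -0.30 and -0.40 in *P. zorritensis* and -0.09 and -0.10 in *C. lepadiformis*.

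**Figure D5:**
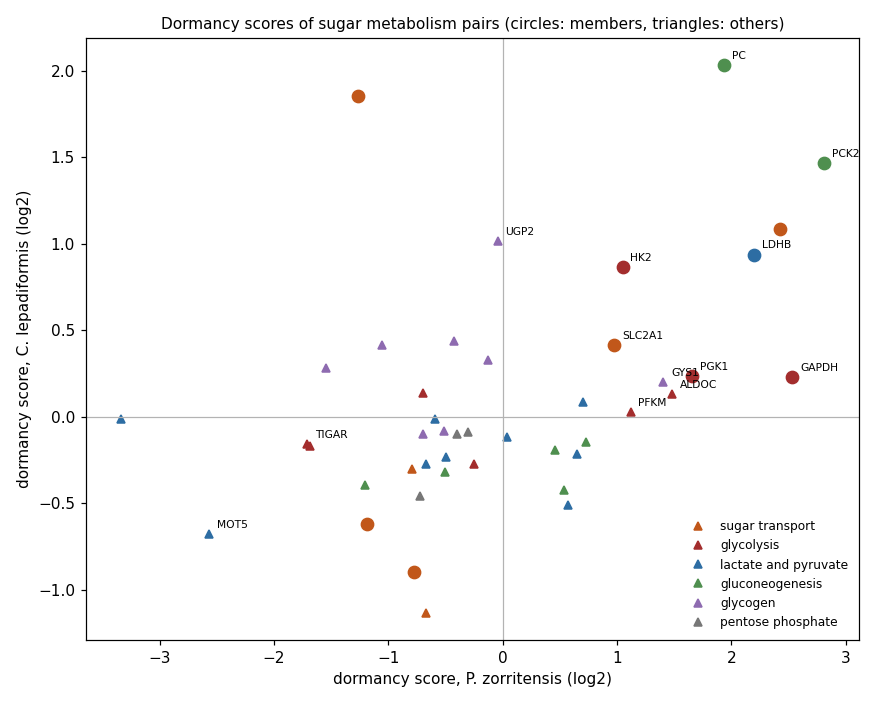
Dormancy score in *P. zorritensis* against that in *C. lepadiformis* for the 11 member pairs (circles) and the 33 other sugar metabolism pairs (triangles), coloured by list, with some pairs named. Points to the right of 0 are higher in dormant tissue of *P. zorritensis*. PCK2, PC, LDHB and SLC2A5-a lie in the upper right, and MOT5 and TIGAR lie on the left.

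Likeness of pattern was measured as the root mean square difference between 2 pairs over the 10 centred stage means, 5 of each species, among 2672 pairs with a human name and a mean of at least 5 in some stage of both. The pair most like PCK2 was HIF1A, the hypoxia-inducible factor subunit, at 0.37. HIF1A had means of 57.4 in zooids, 63.7 in pre-buds, 61.9 in stolons, 230.8 in dormant and 48.7 in germinating tissue of *P. zorritensis*. Its *C. lepadiformis* means were 67.1, 73.3, 228.1, 177.4 and 47.1. It was also among the 2 nearest to PC, at 0.61, behind PK3CG at 0.60. Unlike PCK2, it was higher in stolons than in winter buds of *C. lepadiformis*.

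For LDHB the nearest were ALDOC at 0.40 and the pair of F-box proteins FBW1A and FBW1B at 0.43, the latter also next after HIF1A for PCK2, at 0.51. The heat shock protein HS90B was nearest to PGK1 at 0.19 and next nearest to GAPDH at 0.41, after 3BHS7 at 0.40. AR6P1 was the next for both PGK1, at 0.22, and SLC2A5-a, at 0.48, where CCNT2 came before it at 0.46. DNJB6 and VPP1 were nearest to HK2, at 0.38 and 0.39.

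SLC2A1 was most like TES at 0.19 and the pair GT251 and GT252 at 0.21. SLC2A5-c was most like KAD9 and CFA91, both at 0.24 and both matched to proteins of cilia or flagella, SLC2A5-b like the pair CHLE and ACES at 0.28 and the pair SH24A and SH24B at 0.31, and SLC2A5/SLC2A1 like T11L1 at 0.58 and SIK1B at 0.59. Among the members the closest were GAPDH and PGK1 at 0.37, SLC2A1 and PGK1 at 0.42, PGK1 and LDHB at 0.43, and SLC2A5-a and PCK2 at 0.46. HK2 stood farther from the other glycolytic steps, at 0.66 from PGK1 and 0.90 from GAPDH, than from SLC2A1, at 0.53.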

How the data were processed

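RNA of 36 samples was sequenced and assembled de novo for each species by the authors with Trinity, after Rcorrector, Trim Galore, ribosomal RNA removal with Bowtie2, FastQC and Blobtools, with coding regions from Transdecoder and redundancy removed with cd-hit. The signal values are, as deposited by the authors, stage means of TPM from Kallisto scaled by TMM across the libraries of a species. Samples per stage could not be analysed singly, since each stage has 1 mean, and reads per sample are not given in the values used. The pair table, by reciprocal best hits, also holds the authors' own calls of stages up or down, which were not used. No genome build applies.

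Scores and counts were computed in Python 3.11.15 with numpy 2.4.6 and pandas 2.3.3, and figures with matplotlib 3.10.9. A pseudocount of 1, a minimum mean of 5 in the higher stage and a 2-fold threshold were used. The background is the 4422 different transcripts of the pair table per species. Ratios used the means with no pseudocount. Named genes are all members, up to 3 pairs per list with the largest absolute dormancy score, and the 2 pairs most like each member, plus those said to have been chosen by their values. A pair that this rule names is not reported here. The lists cover 6 pathways and cilia, digestive and muscle markers. The members and lists were chosen with earlier results of these data known. The counting was tested on simulated data with planted changes, little spread and no difference in scale between stages, which checks the computation only. Alternatives were pseudocounts of 0.1 and 5, no minimum or a minimum of 10, a 1.5-fold threshold, rescaled stages (median log2 ratio set to 0, or the same sum in each), sums over the Trinity gene, and scores without zooids. The same sum for the pathway pairs and for the differences between species, and the Trinity gene sums for ratios, were added after seeing the data.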

Additional observations from a re-analysis of the deposited data

How the results depend on the processing

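No dormancy score of a member changed sign under the alternatives run, and a count cannot change direction. Some differences between 2 stages did reverse with stages rescaled to the same sum. Dormant tissue of *P. zorritensis* over pre-buds went from 1.23 to 0.727 for HK2 and from 1.55 to 0.915 for SLC2A1. The median difference between the species in dormant tissue went from 0.45 to -0.06 under the same rescaling. Of the counts recomputed, 119 stayed within 1.5 times the main count and 15 did not, and 117 scores moved by less than 1.5-fold and 15 by more, 9 of them in *P. zorritensis* with stages rescaled to the same sum. That rescaling took the members higher in dormant tissue of *P. zorritensis* from 8 to 3 against zooids, from 6 to 3 against pre-buds and from 6 to 3 against germinating tissue, and those lower from 1 to 2 against zooids and from 1 to 2 against stolons. Rescaling to a median log2 ratio of 0 gave 2 lower against zooids and 2 against stolons. Without a minimum, 2 were lower against zooids, 2 against pre-buds and 2 against stolons. A pseudocount of 0.1 and a 1.5-fold threshold each gave 2 lower against zooids, and a minimum of 10 gave 0. In *C. lepadiformis* a minimum of 10 left 1 lower against zooids and a 1.5-fold threshold gave 7 higher. For the rescalings, the minimum and the threshold, the cause lies in their construction. No paired analysis was possible because each stage has only the authors' mean, and no replicate could be left out for the same reason. The differences have no error, so none of them, whatever its size, is more than a difference between values.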

Other observations

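Amylase (AMYP), the starch- and glycogen-splitting enzyme in the digestive marker list, was highest in dormant tissue of both species on the deposited scale. In *P. zorritensis* its means were 21.1 in zooids, 6387 in pre-buds, 1001 in stolons, 8982 in dormant and 3696 in germinating tissue. In *C. lepadiformis* they were 173.7, 60.9, 51.8, 216 and 88.2. With every stage rescaled to the same sum, dormant tissue of *P. zorritensis* was at 0.832 of the level of pre-buds, its highest stage then, and winter buds were still highest in *C. lepadiformis*. Of the 14 digestive marker pairs that reached the minimum in *P. zorritensis*, AMYP was the 1 that was higher in dormant tissue than in zooids, and 10 were lower. The zooid, which holds the gut, was the lowest stage in *P. zorritensis*, whereas the chymotrypsin match CTRL of that species was at 170.0 in zooids and at most 0.638 elsewhere.

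The glycogen-building enzymes UGPA and GLGB were chosen after their values were seen. UGPA, which makes UDP-glucose, was at 27.7 in zooids, 84.9 in pre-buds, 185.6 in stolons, 121.5 in winter buds and 28.3 in germinating tissue of *C. lepadiformis*. GLGB, the branching enzyme, was at 17.0, 112.5, 75.2, 50.0 and 56.2. In *P. zorritensis* UGPA ranged from 7.74 in stolons to 30.7 in pre-buds, and GLGB from 3.93 in stolons to 13.5 in pre-buds. Spherules were at 16.0 for UGPA and 4.75 for GLGB, so neither was highest there as glycogen synthase was. GLGB was thus highest in pre-buds of both species, and UGPA in stolons of *C. lepadiformis* and pre-buds of *P. zorritensis*.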
